A study of Mus musculus with 3 samples.

Results

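The genes described here encode the aminoacyl tRNA synthetases, the enzymes that join each amino acid to its tRNA, and 2 scaffold proteins that hold some of them together. They were chosen by name from a list of 39 symbols: 20 cytosolic enzymes or enzyme subunits, 16 mitochondrial enzymes (symbols ending in 2), Tarsl2, a relative of the cytosolic threonine enzyme, and the scaffold genes Aimp1 and Aimp2. All 39 were found among the 25410 symbols of the files. Of these, 29 had 1 row in the files and 10 had several rows, which were summed (Dars, Kars, Mars, Nars, Qars, Wars, Fars2, Pars2, Tars2 and Aimp2).

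The study measured RNA in IDG-SW3, a clonal mouse line derived from long bone cells that carries an interferon-inducible, temperature-sensitive T antigen and matures into osteocyte-like cells once interferon gamma is withdrawn. The only group was cells at differentiation day 35 that had received 100 nM PTH (parathyroid hormone) for 24 h, in 3 libraries named replicates 1 to 3 and described as a biological triplicate. Libraries were directional and made from total RNA depleted of ribosomal RNA. Vehicle-treated cells were not analysed here, so the values are levels in PTH-treated cells, and the effect of PTH on them was not measured.

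Each tRNA is charged by an enzyme specific for its amino acid, and the charged tRNA is carried to the ribosome by an elongation factor. The enzymes fall into class I and class II, which have unrelated catalytic folds. Mitochondria have their own protein synthesis, and most mitochondrial synthetases come from nuclear genes separate from those of the cytosolic enzymes, although Gars and Kars supply both compartments. In animal cells a group of cytosolic enzymes is held in the multi-synthetase complex by scaffold proteins. Bone-forming cells are known for secreting large amounts of collagen, a protein rich in glycine and proline.

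Library totals were 35195518, 37299517 and 45240005 counts in replicates 1, 2 and 3. Levels are given as RPKM, computed here as counts divided by the transcript length in kilobases and scaled to the library total, with the mean ± SD of 3 libraries. Bone matrix genes were abundant (Col1a2 2946 ± 90.4 RPKM, Sparc 6409 ± 408 and Ibsp 2052 ± 415), and 9 of 14 osteoblast and osteocyte markers were above 1 RPKM by the test described next, beside 43.2% of all genes tested. Counts of the mature osteocyte marker Sost were 2, 0 and 0 in replicates 1 to 3, and Dmp1, a marker of the osteocyte stage, had 77, 115 and 6 counts. Neither gene passed against 1 RPKM in either direction, nor did Runx2, Mepe and Fgf23. Pdpn (156 ± 27.6 RPKM) and Phex (9.05 ± 0.940), of the same list, were above 1 RPKM. Of 15 markers of other cell types, 2 were above 1 RPKM (Tubb3 2.84 ± 0.581 and Adipoq 1.88 ± 1.16, the latter not without replicate 3, edgeR adjusted p = 0.297). The leukocyte gene Ptprc (0.00190 ± 0.00329 RPKM), the endothelial gene Cdh5 (0.128 ± 0.121) and the cartilage genes Acan (0.687 ± 0.0818) and Col2a1 (0.118 ± 0.0610) were below 1 RPKM, beside 13.4% of all genes, and each lost this call without replicate 1 (edgeR adjusted p from 0.0677 to 0.235). Pecam1 and Plin1, both with 2 rows, were at 0, and Ptprc and Col2a1 also had 2 rows.

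Most synthetase genes were well above the level of a typical gene. With edgeR's quasi-likelihood test against a level of 1 RPKM, adjusted over all genes by the Benjamini-Hochberg method at a threshold of 0.05, 31 of the 39 members were above 1 RPKM and 1, Mars2, was below. Of the 21012 genes tested, 43.2% were above and 13.4% were below. A further 5 members did not pass in either direction (Kars, Pars2, Sars2, Tars2 and Vars2), and Mars and Wars were at 0 in every library. A gene that did not pass can still have a low mean. Of the 23048 genes with a length, 13165 had a mean under 1 RPKM (2036 at 0), and 2816 were called below. Against 10 RPKM, 16 members were above and 18 below, beside 20.6% and 73.9% of all genes tested, and 3 did not pass (Vars, Lars2 and Wars2). The median over the 39 members was 8.20 RPKM, beside 0.497 RPKM over all genes with a length.

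The number of rows per symbol moved with these levels. Members with 1 row had a median of 12.2 RPKM, and those with several rows 1.79 RPKM. Over all genes, the medians were 0.694 RPKM for symbols with 1 row and 0.0693 RPKM for symbols with several rows, and 31.6% of the latter were at 0. Among symbols with 1 row, 26 of 29 members were above 1 RPKM and 15 above 10 RPKM, beside 45.4% and 22.2% of the 18758 such genes tested. A low value of a member with several rows is therefore given as a value in these files and not read as absence.

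**Figure D1:**
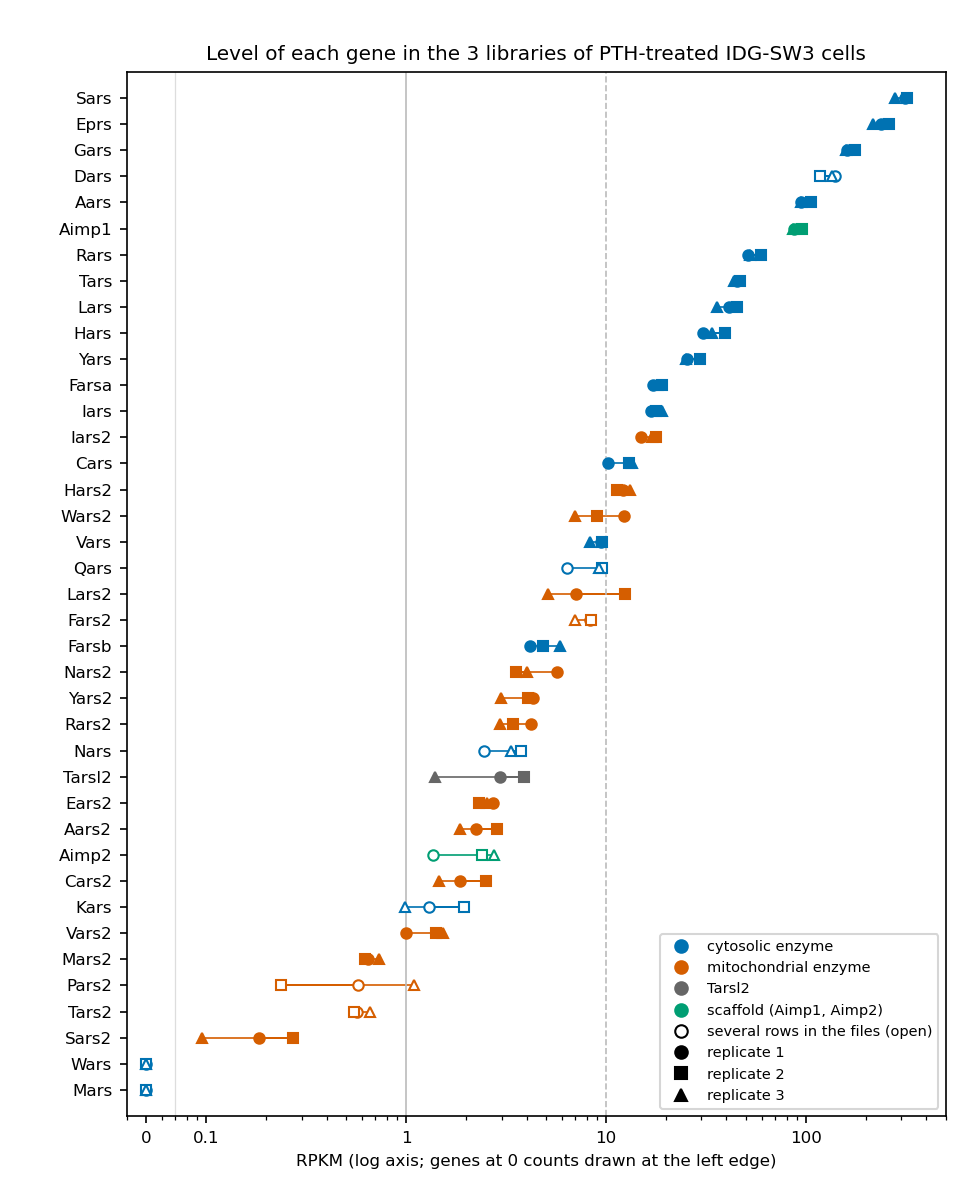
RPKM of each of the 39 genes in the 3 libraries on a log axis, with points joined per gene, colours for the kind of enzyme and open symbols for genes with several rows; lines mark 1 and 10 RPKM. Cytosolic enzymes fill the top of the order from Sars (304 RPKM), the highest mitochondrial gene is Iars2 (16.5 RPKM), and Mars and Wars are drawn at 0.

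The cytosolic enzymes formed the abundant end of the set. Their median was 22.4 RPKM over 20 genes and 37.7 RPKM over the 14 with 1 row. All 14 of the latter were above 1 RPKM, and 12 of them were above 10 RPKM, beside 45.4% and 22.2% of all 1-row genes tested. Most of the reads came from a few genes: Eprs, Sars, Aars and Gars together held 69.1%, 69.3% and 68.1% of the members' counts in replicates 1, 2 and 3. All members together took 0.425%, 0.459% and 0.403% of the library counts.

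Sars, the serine enzyme, was the highest member, at 313, 321 and 278 RPKM. Its 304 ± 22.7 RPKM stood at percentile 98.8 of the genes tested. Eprs encodes a fused enzyme that charges both glutamate and proline tRNAs, and measured 237, 261.5 and 217 RPKM. The ranges of Sars and Eprs did not overlap, since the lowest Sars library (replicate 3) was above the highest Eprs library (replicate 2). That order depends on the transcript: with the longest transcript, Sars was at log2 7.85 against 1 RPKM and Eprs at 7.90. Gars, the glycine enzyme, measured 161, 176 and 159 RPKM, below every Eprs library. With the median transcript length, the enzymes for glycine and proline, residues abundant in collagen, were among the 3 highest genes of the set. The third was that for serine. With the shortest transcript, Dars, for aspartate, was above both Eprs and Gars, and Gars was not among the 3 highest. A link of these levels to collagen synthesis was not tested. Sars, Eprs and Gars were each above 10 RPKM (edgeR adjusted p = 1.2e-179 for Sars, 7.63e-172 for Eprs and 1.69e-151 for Gars).

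Dars, the aspartate enzyme, followed with 140, 118 and 135 RPKM. It had 2 rows, of which 1 held 6934, 6206 and 8595 counts and the other 0, 4 and 12. Aars, the alanine enzyme, measured 94.2, 105 and 94.4 RPKM and lay below Dars in all 3 libraries, without overlap. That order depends on the length and on how rows are handled. With the longest transcript, or with the mean over rows in place of the sum, Dars was below Aars. Part of the Aars exons (14.3% of their bases in GENCODE M21) is shared with Exosc6 on the same strand, and how reads of that stretch were counted is not given in the sources used here. Rars, for arginine, followed at 54.4 ± 4.41 RPKM, above every library of Tars, for threonine, at 45.2 ± 1.54 RPKM. Tars and Lars, the leucine enzyme at 40.9 ± 4.71 RPKM, overlapped and were not separated by the spread between libraries. Lars likewise overlapped Hars, the histidine enzyme, at 30.5, 39.1 and 33.9 RPKM.

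The lower cytosolic enzymes with 1 row ran from 26.7 RPKM to 4.95 RPKM. Yars, for tyrosine, measured 26.7 ± 2.48 RPKM. Farsa (18.0 ± 0.883) and Iars, the isoleucine enzyme (17.8 ± 1.103), were level with each other within their spread. Cars, for cysteine, was at 12.3 ± 1.75 RPKM and Vars, for valine, at 9.08 ± 0.707 RPKM, the latter not separated from 10 RPKM (edgeR adjusted p = 0.167). Cytosolic phenylalanine tRNA is charged by an enzyme built of equal numbers of Farsa and Farsb subunits. The 2 subunit genes were unequal at the RNA level: Farsa measured 17.2, 19.0 and 17.9 RPKM and Farsb 4.15, 4.82 and 5.90 RPKM, with no overlap, and Farsb was below 10 RPKM (edgeR adjusted p = 4.29e-08). Farsb shares 9.47% of its exon bases with Sgpp2 on the opposite strand.

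Class II enzymes were the more abundant in the cytosol. The median over 10 class II genes was 39.9 RPKM and over 9 class I genes 12.3 RPKM, with Eprs, which holds a domain of each class, left out. Over the symbols with 1 row the medians were 45.2 RPKM (7 genes) and 22.3 RPKM (6 genes), and the ranges overlapped, from 4.95 to 304 RPKM for class II and from 9.08 to 54.4 RPKM for class I. Among mitochondrial enzymes the medians were 2.30 RPKM over 7 class II genes and 3.53 RPKM over 9 class I genes. Over those with 1 row they were near each other, at 3.36 RPKM (4 class II genes) and 3.53 RPKM (9 class I genes). The medians of the 2 classes were not tested against each other.

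The multi-synthetase complex holds 8 of the cytosolic genes (Dars, Eprs, Iars, Kars, Lars, Mars, Qars and Rars) and the scaffolds Aimp1 and Aimp2. RNA levels within this complex ranged from 0 (Mars) to 238.5 RPKM (Eprs). Beside 22.2% of all 1-row genes tested, the 4 enzyme genes with 1 row were all above 10 RPKM, from Eprs down to Iars (17.8 RPKM). Their median was 47.6 RPKM, beside 30.6 RPKM over the 10 cytosolic genes with 1 row outside the complex, and the ranges overlapped. Aimp1, whose protein tethers the arginine and glutamine enzymes, measured 87.5, 95.2 and 86.0 RPKM. Eef1e1, which encodes the third scaffold of the complex and was listed with the charging partners, measured 21.3 ± 2.72 RPKM, below every Aimp1 library. Aimp2, the scaffold that binds the lysine enzyme, had 2 rows and measured 1.36, 2.40 and 2.76 RPKM (edgeR adjusted p = 0.000108 against 1 RPKM). Eif2ak1, on the opposite strand, shares 29.4% of the Aimp2 exon bases.

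The 4 lowest cytosolic values, those of Nars, Kars, Mars and Wars, came from symbols with several rows, as did that of Qars. Qars, the glutamine enzyme, measured 8.40 ± 1.74 RPKM and Nars, the asparagine enzyme, 3.18 ± 0.649 RPKM. Kars, the lysine enzyme, measured 1.31, 1.95 and 0.985 RPKM and did not pass against 1 RPKM (edgeR adjusted p = 0.0919, and 0.016 without replicate 3). Mars, the methionine enzyme with 2 rows, and Wars, the tryptophan enzyme with 3 rows, had 0 counts in every library. A count of 0 allows up to 3 counts, which for Mars is 0.0289, 0.0273 and 0.0225 RPKM and for Wars 0.0308, 0.0291 and 0.0240 RPKM. These bounds cover counting error only. Both enzymes are needed in every growing cell, and the part that the several rows play in these values was not tested. Ddit3, a 1-row gene whose exons share 68 bases with Mars on the opposite strand, measured 169 ± 6.11 RPKM in the same libraries.

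The mitochondrial enzymes had the lower median, 3.02 RPKM over 16 genes and 3.53 RPKM over the 13 with 1 row, where they ranged from 0.183 to 16.5 RPKM. Against 1 RPKM, 11 of the 16 (68.8%) were above, beside 43.2% of all genes tested. Against 10 RPKM, 2 were above and 12 below, shares near the 20.6% and 73.9% of all genes tested. Mitochondrial enzymes held 4.95%, 4.89% and 4.67% of the members' counts in replicates 1 to 3, and cytosolic enzymes 92.5%, 92.4% and 92.7%.

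Iars2, the isoleucine enzyme, was the highest at 15.0, 17.8 and 16.9 RPKM, followed by Hars2, the histidine enzyme, at 12.2, 11.4 and 13.1 RPKM, with no overlap between them. The value of Iars2 depends on the transcript: with the length of the transcripts linked to RefSeq (5471 bases in place of 2801), it was 8.47 ± 0.736 RPKM and below 10 RPKM. Iars2 also shares 22.9% of its exon bases with Rab3gap2 on the opposite strand, and Hars2 shares 4.56% of its own with Hars. Wars2, for tryptophan, measured 12.3, 8.97 and 6.95 RPKM, and 5.14 ± 1.48 RPKM with the RefSeq-linked length. Fars2, which had 2 rows, was at 7.88 ± 0.807 RPKM. In all, 13 of the 39 members share exon bases with another protein-coding gene, 11 of them only with genes on the opposite strand; the libraries kept strand, but whether the counting used it is not given in the sources used here.

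A middle group lay between 1 and 5 RPKM. Nars2, for asparagine, measured 4.42 ± 1.13 RPKM. Yars2, for tyrosine, was at 3.78 ± 0.698 RPKM and Rars2, for arginine, at 3.53 ± 0.653 RPKM. Ears2 charges glutamate and, in mitochondria, also serves glutamine tRNA, which an amidotransferase then converts; it measured 2.71, 2.31 and 2.54 RPKM. Aars2, for alanine (2.30 ± 0.495), and Cars2, for cysteine (1.94 ± 0.521), were also above 1 RPKM. Vars2, for valine, measured 1.00, 1.41 and 1.53 RPKM and did not pass (edgeR adjusted p = 0.0594, and 0.0242 without replicate 1). Neighbours in this order overlapped in their library values, except that every Rars2 library was above every Ears2 library.

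The lowest mitochondrial values belonged to Mars2, Pars2, Tars2 and Sars2. Sars2, the serine enzyme, had 1 row and only 12, 19 and 8 counts, or 0.182, 0.273 and 0.0947 RPKM. It did not pass against 1 RPKM with edgeR (adjusted p = 0.114) but was below with DESeq2 (adjusted p = 0.0126) and limma (adjusted p = 0.00227). Pars2, for proline, measured 0.575, 0.236 and 1.097 RPKM, and Tars2, for threonine, 0.590 ± 0.0588 RPKM, both from several rows. Mars2, the methionine enzyme, was below 1 RPKM at 0.642, 0.624 and 0.732 RPKM (edgeR adjusted p = 0.0038). That call rests on a transcript of 11294 bases: with the RefSeq-linked length of 2882 bases the same counts gave 2.61 ± 0.227 RPKM, above 1 RPKM (edgeR adjusted p = 4.47e-16). Tarsl2, which resembles the cytosolic threonine enzyme, measured 2.93, 3.88 and 1.39 RPKM, below every library of Tars.

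The median cytosolic enzyme was higher than the median mitochondrial enzyme in each library. On the log2(RPKM + 0.1) scale, which understates ratios of very low genes, the medians differed by 2.59, 2.89 and 2.95 in replicates 1, 2 and 3, a mean of 2.81 ± 0.19 or 7.02-fold. Over symbols with 1 row the difference was 3.38 ± 0.30 (10.4-fold). The difference exceeded the spread between libraries, but no test is given: with 3 libraries an exact sign-flip test cannot go below p = 0.25, and the genes are not replicates.

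**Figure D2:**
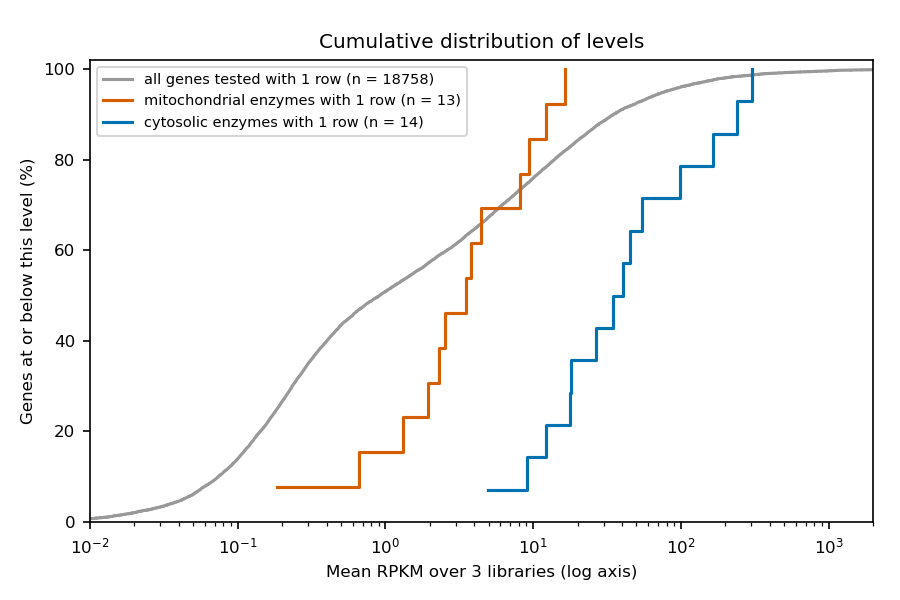
Cumulative share of genes (%) at or below each mean RPKM (log axis) for cytosolic enzymes (14), mitochondrial enzymes (13) and all genes tested (18758), symbols with 1 row only. The cytosolic curve lies to the right of the mitochondrial one throughout; their medians are 37.7 and 3.53 RPKM.

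Matching enzymes for the same amino acid gave 16 pairs. The cytosolic gene was higher in all 3 libraries in 13 of them, and in 10 of the 10 pairs in which both genes had 1 row, where the median log2 ratio was 2.76. The 13 include phenylalanine through Farsa, not Farsb, and isoleucine, where the genes were level in replicate 2 (17.77 and 17.76 RPKM). The ratios ranged widely. Sars exceeded Sars2 by 10.11 ± 0.37 log2 units, a value set by the few Sars2 counts and equal to 8.01 with a pseudocount of 1 in place of 0.1. Eprs exceeded Ears2 by 6.51 ± 0.22 log2 units (91.0-fold) and Aars exceeded Aars2 by 5.37 ± 0.21 (41.3-fold). Rars over Rars2 followed at 3.92 ± 0.30 log2 units (15.1-fold).

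The other 1-row pairs were nearer to each other. The log2 ratio was 2.80 ± 0.25 for tyrosine (Yars over Yars2), 2.72 ± 0.38 for valine, 2.62 ± 0.43 for cysteine and 2.39 ± 0.48 for leucine. These 4 overlapped in their library values. Histidine was lower at 1.48 ± 0.25 log2 units (2.79-fold). Hars and Hars2 lie head to head and share 195 exon bases on opposite strands. Iars and Iars2 were nearly equal, with a log2 ratio of 0.11 ± 0.09 (1.08-fold), and 0.00 in replicate 2; with the RefSeq-linked lengths the ratio was 1.06. The order of isoleucine and histidine below the other 1-row pairs was the same in all 3 libraries.

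The remaining 6 pairs involve a gene with several rows. Eprs exceeded Pars2 by 8.52 ± 1.05 log2 units and Tars exceeded Tars2 by 6.04 ± 0.17. For phenylalanine the answer depended on the subunit, since Farsa exceeded Fars2 by 1.19 ± 0.15 whereas Farsb was lower than Fars2 (log2 ratio -0.67 ± 0.39). The Farsa ratio was 0.38 with the shortest transcript, 1.49 with the longest and 2.17 with the mean over rows. Nars and Nars2 changed order between libraries (log2 ratio -1.18, 0.07 and -0.25). Mars and Wars were at 0 beside Mars2 and Wars2 with counts in every library, and no ratio is given for them.

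**Figure D3:**
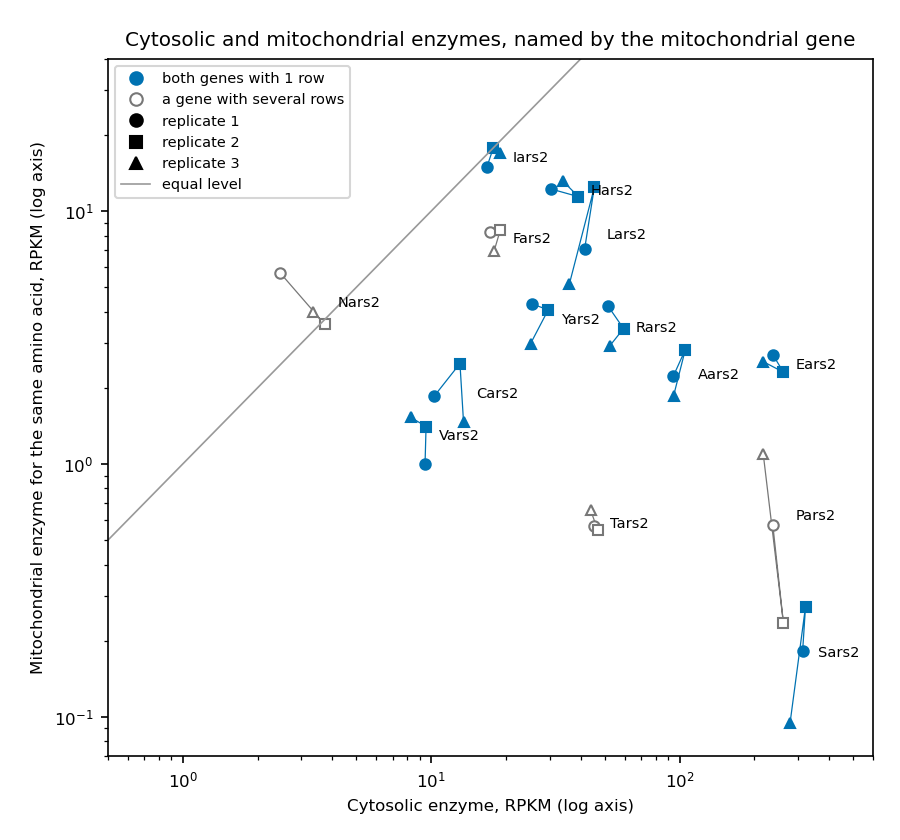
RPKM of the cytosolic enzyme (x, log axis) against the mitochondrial enzyme for the same amino acid (y, log axis), 1 point per library joined per pair, with blue filled points where both genes had 1 row; the Mars and Wars pairs, at 0 in the cytosol, are not drawn. Points below the diagonal have the higher cytosolic level: Sars2 lies farthest from it and Iars2 close to it.

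The abundant members varied between libraries about as much as other genes at their level. For the 16 members at 10 RPKM or more, the SD over libraries on the log2 scale had a median of 0.11 (0.05 for Tars to 0.21 for Cars), beside 0.12 over the 4708 genes at that level. Of these 16 members, 12 were highest in replicate 2, beside 25.4% of all genes at that level; with TMM scaling the numbers were 13 of 16 and 32.6%. The margin was small: Aars was at 94.2, 105 and 94.4 RPKM and Rars at 51.3, 59.4 and 52.4 RPKM. The 17 members from 1 to 10 RPKM had a median SD of 0.30, beside 0.23 over 5175 genes, and Tarsl2 (0.73) and Lars2 (0.64) varied most.

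Lars2, the mitochondrial leucine enzyme, measured 7.06, 12.4 and 5.14 RPKM from 967, 1802 and 905 counts. It was highest in replicate 2, and its SD was 45.9% of its mean. Rn18s, the 18S ribosomal RNA that the libraries were depleted of, was also highest in replicate 2, at 318, 2437 and 278 CPM (counts scaled to the library total without length), beside 27.5, 48.3 and 20 CPM for Lars2. Rn18s was looked up after the Lars2 values were seen. The part of residual ribosomal RNA in the Lars2 value was not tested. Lars2 was above 1 RPKM (edgeR adjusted p = 0.00183) and not separated from 10 RPKM (edgeR adjusted p = 0.443).

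Many cytosolic synthetase genes are known targets of the amino acid response, in which uncharged tRNA activates the kinase Gcn2 (Eif2ak4) and so raises translation of the transcription factor Atf4. Atf4 binds, with C/EBP partners, a composite element of the form TGATGNAA. These letters were searched on both strands of RefSeq promoters (GRCm38.p6, 250 bases before to 50 bases after the start site, 300 bases in all), and 29 members had a promoter in the table. Of 12 cytosolic genes with a promoter 5 held a match (41.7%), beside 4.51% of all 27025 such genes (3.97% of 32851 promoters) and 0 of 14 mitochondrial genes. No match says only that these letters are not in this window, and a match is a description of letters, not of binding. Matches are shown as 30-base windows, so that the element shared by the 5 cytosolic genes can be seen in its place; capitals mark the match, and each is written 5′ to 3′ on the gene's strand.

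The cytosolic genes with a match were Aars, at chr8:111033840-111033869 (+), Gars, at chr6:55037960-55037989 (+), Iars, at chr13:49682126-49682155 (+), Tars, at chr15:11399655-11399684 (-), and Yars, at chr4:129189895-129189924 (+). TTGCATCA and TTTCATCA are the element read on the opposite strand.
Aars: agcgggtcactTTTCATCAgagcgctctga
Gars: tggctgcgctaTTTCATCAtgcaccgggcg
Iars: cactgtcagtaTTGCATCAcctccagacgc
Tars: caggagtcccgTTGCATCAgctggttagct
Yars: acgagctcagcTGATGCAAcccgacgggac

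Among 25 listed amino acid response genes with a promoter, 8 held a match (32%): Asns, Atf3, Chac1, Nupr1, Pycr1, Slc7a11, Trib3 and Vldlr. The windows of 3 well-known targets are shown for comparison: Asns, asparagine synthetase, at chr6:7693214-7693243 (-), Trib3, a pseudokinase that restrains the pathway, at chr2:152344028-152344057 (-), and Chac1, a glutathione-degrading enzyme, at chr2:119351038-119351067 (+).
Asns: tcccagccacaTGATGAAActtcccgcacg
Trib3: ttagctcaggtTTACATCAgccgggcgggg
Chac1: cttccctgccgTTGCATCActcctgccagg

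In Gars, Iars, Tars and Yars the first base of the match lay within 30 bases of the start site, at -30, 8, -15 and 4. The Aars match shown began at 10. The list genes were spread from -200 in Vldlr to 15 in Trib3. Levels of the cytosolic genes did not follow the match in a single direction: the median was 45.2 RPKM over the 5 with a match and 18.0 RPKM over 7 without, but 128 RPKM over the 4 without that had 1 row, among them Sars and Eprs.

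**Figure D4:**
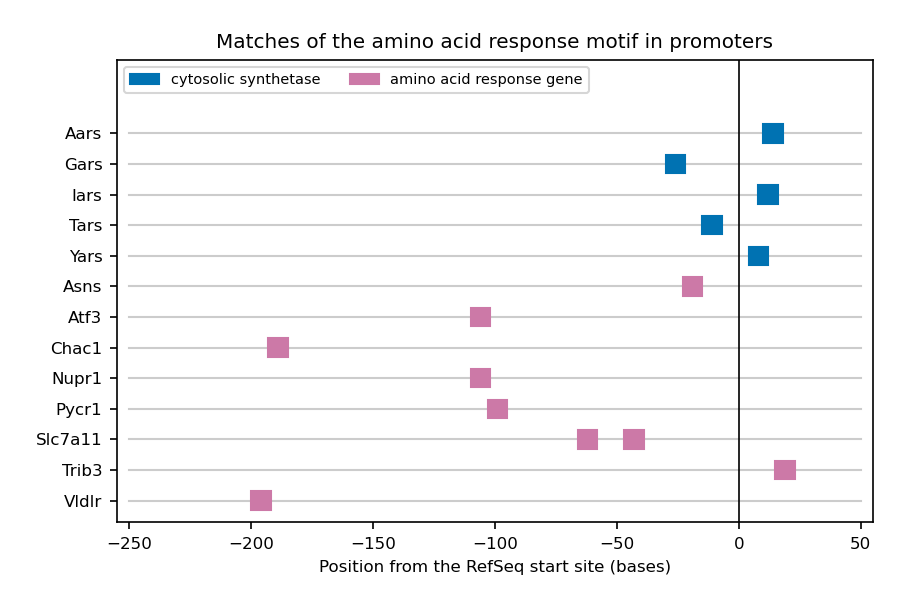
Positions of the TGATGNAA matches reported (boxes, either strand) in the promoters of 5 cytosolic enzymes (blue) and 8 amino acid response genes (pink), in bases from the RefSeq start site, marked by the vertical line. The matches shown for the 5 cytosolic enzymes lie within 30 bases of the start site.

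The amino acid response genes themselves spanned a wide range in these PTH-treated cells. Of 26 genes, 23 were above 1 RPKM and 2 below, beside 43.2% and 13.4% of all genes tested, with a median of 22.9 RPKM beside the 22.4 RPKM of the cytosolic enzymes. Against 10 RPKM, 15 were above and 9 below, beside 20.6% and 73.9%. All 21 with 1 row were above 1 RPKM, beside 45.4% of all 1-row genes tested. Among the genes with a promoter match, Nupr1 (62.8 ± 5.05 RPKM) and Trib3 (47.7 ± 4.98) were above 10 RPKM, while Chac1 (7.24 ± 0.903), Pycr1 (7.15 ± 0.654), Slc7a11 (6.74 ± 0.842) and Atf3 (3.04 ± 0.880) were below it; Vldlr, with 2 rows, had 0, 11 and 0 counts. Atf4 measured 310, 291 and 296 RPKM, within the range of Sars. Its partner Ddit3 was at 169 ± 6.11 RPKM, Asns, which also has a match, at 95.6 ± 9.99 RPKM and Cebpb, a C/EBP factor, at 76.6 ± 16.01 RPKM. The serine pathway enzymes Phgdh (44.2 ± 4.51), Psat1 (34.7 ± 3.11) and Psph (26.8 ± 3.99) and the glycine-forming enzyme Shmt2 (17.2 ± 0.754) were also above 10 RPKM; these and the genes with a match were named for their role after their values were seen. Eif2ak4 (0.110 ± 0.0660) and Aldh18a1, which makes a proline precursor (0.202 ± 0.139), were below 1 RPKM, both from 2 rows; the call of Aldh18a1 was lost without replicate 1 (edgeR adjusted p = 0.095) or replicate 2 (0.0603).

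Genes that act before or after charging were measured in the same libraries. Beside 43.2% of all genes tested, 7 of 8 tRNA maturation and export genes were above 1 RPKM, as were 4 of 5 cytosolic and 3 of 4 mitochondrial elongation factor genes. Xpot, the tRNA export receptor, was at 75.9 ± 1.59 RPKM and Trnt1, which adds the CCA end that the amino acid is joined to, at 58.5 ± 2.72 RPKM. Pop1, an RNase P subunit with 2 rows, had 0, 0 and 7 counts. Xpot varied less than each of the 16 members at 10 RPKM or more, with an SD of 0.03 on the log2 scale. The median of the 5 cytosolic elongation factor genes was 813 RPKM, above that of the synthetases. Eef1a1, which carries charged tRNA to the ribosome, reached 5200 ± 144 RPKM, while Eef1d, with 2 rows, had 14, 83 and 4 counts. The mitochondrial factors above 1 RPKM were Tsfm (13.7 ± 2.38), Gfm2 (9.02 ± 1.22) and Gfm1 (8.97 ± 1.103), and Tufm, with 2 rows, had 0, 16 and 0 counts.

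The amidotransferase that completes mitochondrial glutamine charging had RNA counts for all 3 of its genes in every library. Pet112l (Gatb) measured 9.80 ± 1.58 RPKM, Gatc 4.48 ± 1.30 RPKM and Qrsl1 1.64 ± 0.217 RPKM, beside 2.52 ± 0.202 RPKM for Ears2, which supplies its substrate. Mtfmt, which formylates the methionine joined by Mars2, was at 3.82 ± 0.673 RPKM. With Eef1e1, all 5 charging partners were above 1 RPKM, beside 43.2% of all genes tested; without replicate 3 the call of Qrsl1 was lost and 4 were.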

How the data were processed

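The deposited tables give, per library, a gene symbol and a whole number; they are named as RPKM, but their values are whole and sum to 35195518 to 45240005, so they were used as read counts. Per the submitters' processing notes, the authors mapped reads with TopHat to mm9 before making these deposited counts; the sources used here do not give the counter or the annotation. Rows were summed per symbol. RPKM was computed here with the median basic transcript length of GENCODE M21 (GRCm38), which 23048 of 25410 symbols had, 2208 of them through synonyms; the 2362 others were left out.

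Levels were tested with edgeR 4.0.16 (quasi-likelihood F test, intercept only, offset at 1 or 10 RPKM) with Benjamini-Hochberg adjustment over 21012 genes. The method was run on counts simulated from the kind of model that it assumes. That run cannot show how it behaves on genes that depart from the model. Since separate cultures are not named, p-values measure only the spread between these libraries. Members and lists were chosen with earlier results of these data known. All members are named, with up to 4 of the highest genes of each list and list genes at 0 or called below 1 RPKM; other list genes were named by role after their values were seen. Alternatives were DESeq2 1.42.0, limma 3.58.1 on log2 RPKM, other lengths, filters, pseudocounts, scalings, row handling and leaving out each library. Promoters are from RefSeq; 1 match in a member's promoter is not reported here, nor are matches of marker genes. With 3 libraries of 1 group, values of single libraries were not screened for outliers.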

Additional observations from a re-analysis of the deposited data

How the results depend on the processing

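Of 473 member levels recomputed under alternatives, 460 kept their direction and side of the threshold. Calls against 1 RPKM were lost for Mars2 with limma (adjusted p = 0.0982) and Aimp2 with the mean over rows (edgeR adjusted p = 0.799). Calls were gained for Kars with the shortest transcript (edgeR adjusted p = 0.0475), Pars2 with the mean over rows (0.0332), Sars2 with a filter of 10 counts in 2 libraries (0.0467) and Tars2 with the longest transcript (0.0212) and limma (0.05 after rounding), besides those already given. Levels changed side for Kars with the mean over rows (log2 -0.49 against 1 RPKM), Mars2 with the RefSeq-linked length (1.38) and the marker Cd68 (from -1.17 without replicate 2 to 0.08 without replicate 1). Farsb in place of Farsa gave a log2 ratio of -0.67 to Fars2. The RefSeq-linked length was added after seeing the data.

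The cytosolic to mitochondrial difference was 2.50 with a pseudocount of 1, 3.38 with 1-row symbols, 3.26 without length and 2.54 with Tarsl2 among the cytosolic enzymes. Members below 1 RPKM numbered 2 with DESeq2, the filter, limma, the longest transcript and the mean over rows, and 0 with the RefSeq-linked length. With 1-row symbols 11 members and 1 cytosolic enzyme were below 10 RPKM. Mitochondrial enzymes above 10 RPKM numbered 0 with the longest transcript, 4 with the shortest and 1 with the RefSeq-linked length.

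List genes below 1 RPKM numbered 1 for cytosolic elongation factors (limma, longest transcript), 1 for mitochondrial ones (limma) and 1 for tRNA maturation (DESeq2, limma). For the amino acid response they numbered 0 with 1-row symbols, 1 with the shortest transcript and 1 to 2 leaving out a library. For osteoblast and osteocyte markers they numbered 2 with DESeq2, 3 with limma and 1 with the longest transcript, the mean over rows and the RefSeq-linked length. Markers of other cell types below 1 RPKM numbered 9 with DESeq2 and limma, 2 with 1-row symbols and 0 to 4 leaving out a library; above 1 RPKM, 1 with limma and 1 to 2 leaving out a library.

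Member levels rest on transcript lengths of a later build and on counts whose treatment of strand, multiple mapping and several-row symbols is not known. Depth limits Sars2, Pars2 and Tars2, with at most 130 counts in any library. No paired analysis was possible because the series has 1 group.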
